A study of Mus musculus with 2 samples.

Results

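Cytosolic ribosomal protein genes were selected by symbol: every protein-coding gene named Rpl or Rps with a number, and Rplp0, Rplp1, Rplp2 and Rpsa, was a member, with the paralogs whose symbols end in l or l1. The selection held 83 of the 43346 genes in the tables. Of these, 77 were core subunits, 46 of the large (60S) and 31 of the small (40S) ribosomal subunit, and 6 were paralogs (Rpl3l, Rpl7l1, Rpl10l, Rpl22l1, Rpl39l and Rps27l). Fau, Rack1, Rpl36al and Rps27rt encode ribosomal proteins or a close copy of one but have other symbols, so they are described beside the members and not counted among them. Rps4l, Rps12l1, Rps3a2, Rps3a3 and Rpl6l fit the pattern of names but are annotated as pseudogenes and were left out.

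The material was total RNA longer than 200 nt from limbs of B6NCrl mouse embryos, male and female pooled, at embryonic day 13.5, with no treatment and no genetic change named in the labels. A single group was sequenced as 2 libraries, numbered as biological replicates 1 and 2, each from 10 ng of RNA with ERCC spike-in transcripts. Both name the same donor entry, and forelimb and hindlimb are not distinguished, so the spread given here is that between these 2 libraries alone. Sequencing gave 31927045 expected counts for genes and spike-ins in replicate 1 and 43194454 in replicate 2, and all 7 limb mesenchyme markers listed (Prrx1, Msx1, Hoxa13, Hoxd13, Tbx5, Pitx1, Tbx4) were at 1 TPM or more. With 1 group there is no contrast between conditions. The questions were how evenly the subunits were expressed, which copy of each paralog pair was used, and how well the libraries repeated each value.

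The ribosome joins ribosomal RNA to about one copy of each ribosomal protein per subunit, so cells need the proteins in near-equal numbers, and most protein made in excess is degraded. Messenger RNAs for these proteins typically begin with a cytosine inside an unbroken run of pyrimidines, the 5′ terminal oligopyrimidine (TOP) element, through which mTOR and Larp1 tune their translation. Some subunits have a second gene that is used in particular tissues, and the family has left a large number of processed pseudogenes, copies of spliced messenger RNA inserted elsewhere in the genome. Mouse mutants of several members show skeletal, limb-patterning or skin phenotypes.

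The start regions were examined for C/T runs, in core subunits and in paralogs. Whether a run begins at the start site, as in a TOP element, was not tested. RefSeq (GRCm38.p6) gave a promoter for 63 of the 83 members, 57 core subunits and all 6 paralogs. Each line below gives 30 bases around a RefSeq start site on the gene's own strand, with the longest unbroken C/T run of those bases in capitals. Rpl7a, Rpl27a and Rpl34 are shown for their long runs, Rpl38 for its mutant limb and skeletal phenotype, and the others as paralogs, beside their parents for Rps27, Rpl39 and Rpl22.
Rpl7a: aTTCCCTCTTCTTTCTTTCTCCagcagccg
Rpl27a: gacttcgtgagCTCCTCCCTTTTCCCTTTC
Rpl34: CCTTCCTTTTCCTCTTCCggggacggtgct
Rpl38: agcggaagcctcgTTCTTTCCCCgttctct
Rps27: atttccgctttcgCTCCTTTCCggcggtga
Rps27l: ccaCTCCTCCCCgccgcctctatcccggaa
Rpl39: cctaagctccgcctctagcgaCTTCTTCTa
Rpl39l: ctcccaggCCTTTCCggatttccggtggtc
Rpl22: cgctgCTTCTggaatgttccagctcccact
Rpl22l1: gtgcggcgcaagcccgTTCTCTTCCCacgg
Rpl3l: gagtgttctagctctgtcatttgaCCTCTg

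These windows lie at chr2:26910792-26910821 on the plus strand (Rpl7a), chr7:109519180-109519209 plus (Rpl27a), chr3:130730323-130730352 minus (Rpl34), chr11:114668565-114668594 plus (Rpl38), chr3:90213634-90213663 minus (Rps27), chr9:66946071-66946100 plus (Rps27l), chrX:37085208-37085237 minus (Rpl39), chr16:10170213-10170242 plus (Rpl39l), chr4:152324421-152324450 plus (Rpl22), chr3:28805493-28805522 plus (Rpl22l1) and chr17:24727811-24727840 plus (Rpl3l). The run reached 21 bases in Rpl7a, 19 in Rpl27a and 18 in Rpl34, against 10 in Rpl38 and Rpl22l1 and 5 in Rpl3l and Rpl22. The parent Rpl22 thus had a shorter run than its paralog. The printed Rpl22 window lies upstream of the gene's span in GENCODE M21, which begins at chr4:152325742. A second listed start of Rpl22, with its window next to that span at chr4:152325711-152325740, had a run of 4. Over the stretch from 20 bases before to 50 after the start, the median longest run was 10 bases in core subunits, 8 in paralogs and 6 in all 27025 genes with a promoter in the table.

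Short motifs were counted in the 250 bases before to 50 after the start, so the windows overlap the C/T run, and a gene with several listed starts counted once if any of them held the motif. CTTTCC on the gene's own strand, which is itself a C/T run, was in 23 of 57 core promoters (40.4%) and in 16.0% of all promoters. CCGGAAG on either strand, the core of ETS-family sites, was in 24 (42.1%) and in 9.93% of all. AAGATGGC on either strand, the core of the YY1 site, was in 5 (8.77%) and in 3.19% of all. TATAAA on the gene's strand was in 5 (8.77%) and in 9.77% of all, and the E-box CACGTG was in 6 (10.5%) and in 8.09% of all. Of the 6 paralogs, Rpl39l and Rps27l held both CTTTCC and CCGGAAG, and Rpl3l and Rpl10l held none of the 5 motifs. A match shows only that these letters stand in the window.

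The members were among the most abundant messages in the limb. TPM is the deposited measure of transcript abundance, scaled by gene length. At 1 TPM or more in both libraries, 81 of 83 members were detected, beside 61% of all protein-coding genes. At 100 TPM or more, 79 members passed, beside 7.48% of all protein-coding genes. At 1000 TPM or more, 22 core subunits passed, beside 0.382% of all protein-coding genes, so they were 28.6% of the core subunits and 26.8% of the 82 genes at that level. Members held 2.48% of the expected counts in replicate 1 and 2.40% in replicate 2, or 2.44% ± 0.0632 (SD, n = 2). Being short, they held more of the TPM, 6.39% and 6.26%. The 77 genes of the mitochondrial ribosome, a separate set of proteins, held 0.414% ± 0.00847 of the counts. Their median was 83.1 TPM, from Mrpl17 at 284 TPM to Mrpl1 at 18.1 TPM.

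Core subunits were far from uniform in the tables. Their median was 720 TPM, and 62 of 77 lay within 2-fold of it, with 11 below and 4 above. The 10th to 90th percentile ran from 275 to 1357 TPM, a 4.94-fold range. The extremes were 48.7-fold apart. The SD of log2 TPM over the 77 genes was 0.96, and the pooled SD of the same genes between libraries was 0.04, so the spread among subunits was 22.4 times the spread between libraries. In bulk tissue, fewer cells of a type and less RNA per cell cannot be told apart, and these levels are means over all cell types of the limb.

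Rpl41, one of the shortest ribosomal proteins, was the most abundant member at 3267 TPM in replicate 1 and 3064 in replicate 2 (3165 ± 144, SD, n = 2; chromosome 10, 128548114 to 128549305, mm10). Rps19, a small-subunit protein needed for maturation of 18S rRNA, followed at 2151 and 2126 TPM (2138 ± 17.7). The large-subunit gene Rpl32 had 1704 and 1711 TPM. The small-subunit gene Rps14, which helps form the platform that contacts mRNA, had 1631 and 1601 TPM. These 4 were the core subunits above 2 times the median. Others in the top 10 were Rpl37a (1388 ± 9.74), Rps18 (1379 ± 38.1), Rpl36 (1359 ± 20.1), Rpl7 (1356 ± 27.4) and Rps29 (1355 ± 32.5). Among these last 5, neighbouring means lay closer together than the libraries did, and their order was not resolved.

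**Figure D1:**
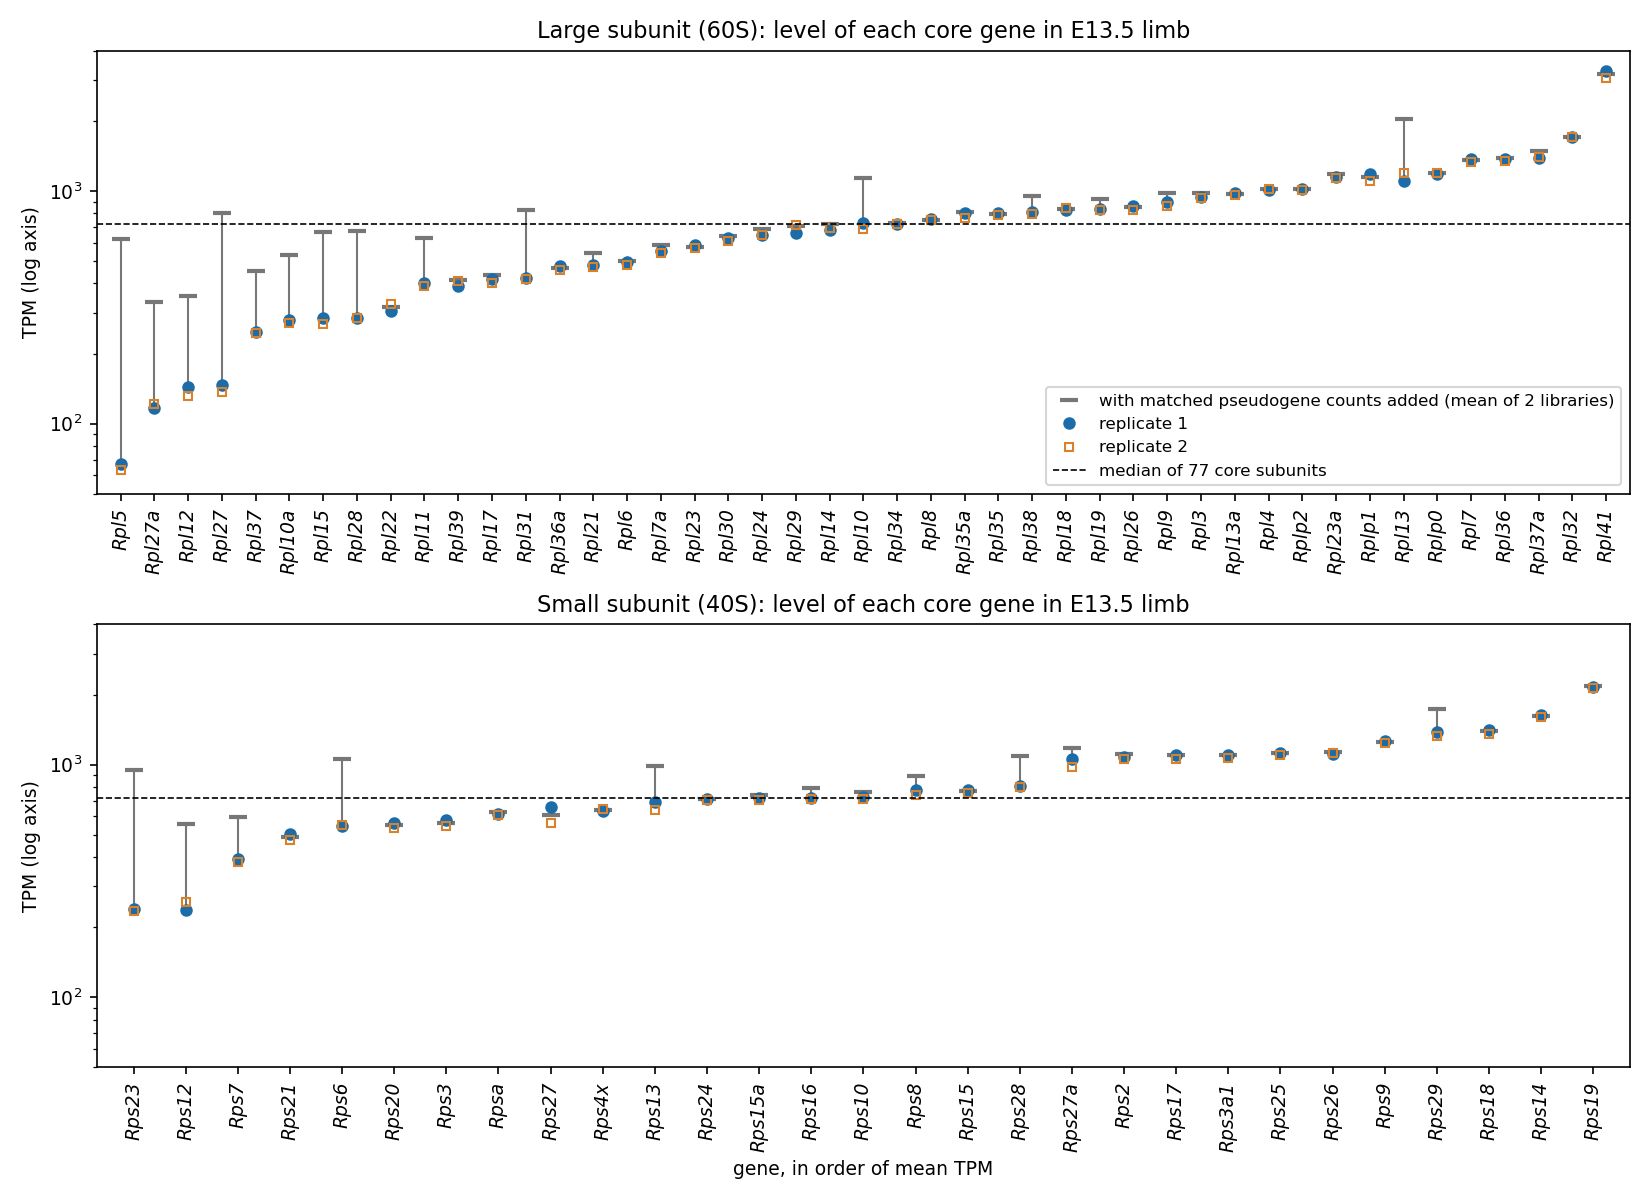
TPM (log axis) of 45 of the large-subunit (top) and 29 of the small-subunit (bottom) core genes in replicate 1 (filled circles) and replicate 2 (open squares), in order of mean TPM; grey bars mark the mean level after the counts of matched pseudogene entries are added, and the dashed line is the median of 720 TPM. The libraries nearly coincide for each gene, and the lowest genes of each panel move towards the median with the added counts, Rpl5 from 64.9 to 622 TPM.

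At the other end stood Rpl5, a protein of the large subunit's 5S ribonucleoprotein, at 66.7 and 63.1 TPM (64.9 ± 2.55; chromosome 5, 107900502 to 107909005, mm10). Rpl27a had 117 and 121 TPM, and Rpl12, part of the base of the stalk, had 144 and 132. Rpl27 had 146 and 137 TPM. Rps23, a protein of the decoding centre, had 240 and 236. Above it came Rpl37 (245 ± 1.41), Rps12 (247 ± 12.7), Rpl10a (275 ± 7.41), Rpl15 (275 ± 11.2) and Rpl28 (285 ± 0.481). Each of these 10 lay far below the median in both libraries. Just above them, Rpl22 had 305 and 327 TPM.

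For most of these low genes, pseudogene entries of matching sequence held more counts than the gene itself. An entry was matched to a member when at least 30% of its 25-base words occurred in that member's transcripts, which gave 488 entries over 76 members, 72 of them core subunits. All were annotated as pseudogenes except 4 with pseudogene symbols annotated as protein-coding, such as Rpl10-ps3. Their expected counts summed to 138390 in replicate 1 and 179296 in replicate 2, or 14.9% and 14.8% of the counts of all members and entries together. Most were low: 85 entries had 0 counts in both libraries, and 28 had at least 1000 in both. For 8 core subunits the entries held over 50% of the counts in both libraries, and all 8 were among the 10 lowest core subunits: Rpl5, Rpl27, Rps23, Rpl27a, Rpl12, Rpl15, Rpl28 and Rps12. Counts assigned to an entry are missing from the parent's row, so the share and the level are not independent measures. A median of 39.1% of all 100-base windows of a core subunit's main transcript also occurred in another gene, and reads from such windows cannot be told apart.

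Rpl5 was the extreme case. Its entry Gm15500, a transcribed processed pseudogene that overlaps no other gene of the table (chr7:114705217-114706235, minus strand, mm10), held 13092 counts in replicate 1 and 16674 in replicate 2. In TPM this entry stood at 694 and 668, against 66.7 and 63.1 for Rpl5 itself. All 891 bases of the Rpl5 coding sequence occurred in Gm15500 with 0 differences. Their first 90 coding bases (GENCODE M21) are printed to show the identity; no base is in capitals because none differs.
Rpl5: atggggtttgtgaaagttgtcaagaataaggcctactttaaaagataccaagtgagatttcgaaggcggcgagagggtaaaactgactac
Gm15500: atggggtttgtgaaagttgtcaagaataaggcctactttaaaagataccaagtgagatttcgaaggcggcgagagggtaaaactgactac

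Other matched entries also had high counts, and how much of the parent each of them covers was not measured. Gm12918, with 100% of its own words found in Rpl13, held 13151 and 16417 counts. Rps23-ps1 held 9762 and 12709, Rpl15-ps3 held 8860 and 11708, and Rps6-ps4 held 8431 and 10740. Rpl27 had a pair of such entries, Gm11518 with 3983 and 5468 counts and Rpl27-ps3 with 3978 and 5159. Shares were stable between libraries: the entries of Rpl5 held 89.4% and 89.7% of the counts of gene plus entries, those of Rpl27 81.8% and 82.9%, and those of Rps23 75.0% and 74.9%. In 24 core subunits the share was above 10% in both libraries, and in 50 the entries changed the level by less than 1.1-fold.

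**Figure D2:**
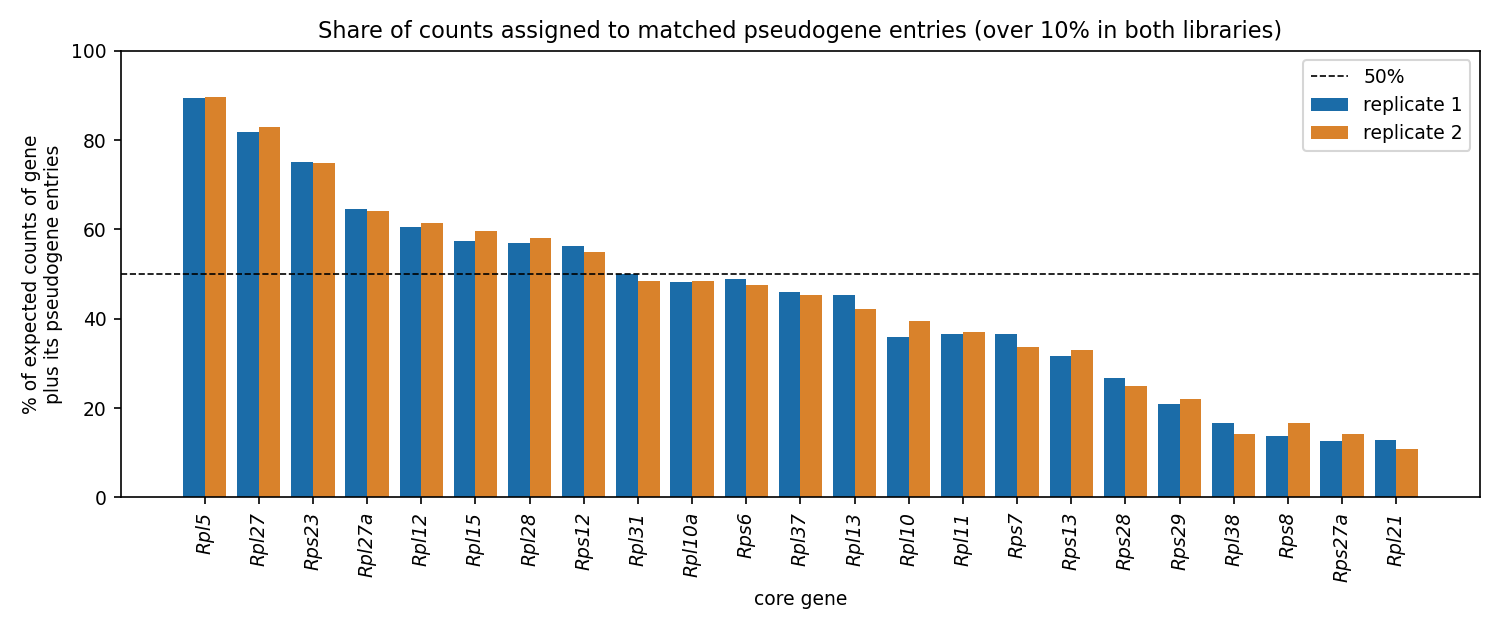
Percent of the expected counts of a core gene plus its matched pseudogene entries that was assigned to the entries, for 23 of the 24 core genes above 10% in both libraries; paired bars are replicates 1 and 2, and the dashed line is 50%. The share falls from 89.4% and 89.7% for Rpl5, and 8 genes are above the line in both libraries.

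Adding the entries' counts to the parent gives the level that would hold if all of them came from it. The added counts were scaled by the length of the parent, 1217 nt for Rpl5, whereas Gm15500 has 1004 nt. The added level depends on that choice: Gm15500 alone, at its own length, had 694 and 668 TPM. With the entries' counts added, the core median was 830 TPM. The extremes 317 (Rpl22) and 3165 (Rpl41) were 10.0-fold apart, and the SD of log2 TPM was 0.64. Within 2-fold of that median lay 68 of 77 core subunits, with 4 below and 5 above. Rpl5 reached 622 TPM, Rpl27 803, Rps23 949, Rpl15 664, Rpl28 671 and Rps12 557. Rpl27a, at 334 TPM, and Rpl12, at 354, still had under 0.5 of that median. Rpl13 went from 1148 to 2041 TPM. A range remained in genes that share nothing: the 8 core subunits with 0% of their windows in any other gene (among them Rpl22, Rpl23, Rpl32, Rps3, Rps9, Rps20 and Rps21) ran from 316 to 1707 TPM, 5.40-fold, with an SD of log2 TPM of 0.79. The 15 core subunits with under 10% of windows shared had a median of 766 TPM and an SD of log2 TPM of 0.74.

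Across the 77 core genes, mean TPM had a Spearman rho of -0.32 with gene length and -0.18 with the percent of windows shared. Genes are not independent replicates, and these points share the same 2 libraries. The 16 core genes under 500 nt had a median of 911 TPM, and the longer ones had 708. Lengths ran from 255 to 1861 nt, and the effective length used for TPM was 99 nt less, so short genes depend most on it.

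The large and small subunits stood at similar levels. The median of the 46 large-subunit genes was 723 TPM in replicate 1 and 718 in replicate 2, and that of the 31 small-subunit genes was 777 and 740. The 60S over 40S difference of medians was -0.07 on the log2 scale, 0.950-fold, with -0.10 in replicate 1 and -0.04 in replicate 2. When counts were divided by full gene length the difference was 0.0047 on the log2 scale, so its sign was not resolved. With pseudogene counts added the medians were 806 and 789 TPM against 958 and 940. Large-subunit genes varied more among themselves, with an SD of log2 TPM of 1.08, against 0.72 for the small subunit.

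The ribosomal stalk recruits translation factors, and its 3 proteins were high and close together. Rplp0, the scaffold, had 1184 and 1199 TPM (1192 ± 10.6). Rplp1 had 1182 and 1106 (1144 ± 53.7), and Rplp2 had 1016 and 1014 (1015 ± 1.49). Rplp1 and Rplp2 join Rplp0 as dimers in the ribosome, and neither message was above that of Rplp0 in either library. The gap of Rplp1 to Rplp0 was smaller than the difference between the libraries of Rplp1, whereas Rplp2 lay below both in each library.

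Rpl5 and Rpl11 form the 5S ribonucleoprotein with 5S rRNA, and when free they bind Mdm2, the ubiquitin ligase of p53. Rpl11 had 403 and 390 TPM, 396 ± 9.60, and Rpl5 had 64.9 ± 2.55. The gene rows were farther apart than the libraries of either gene, but with the pseudogene entries added Rpl11 stood at 627 and Rpl5 at 622 TPM. Both of these levels scale the added counts by the parent's length, so their closeness depends on that choice. The p53 axis they act on was expressed: Trp53 had 131 and 135 TPM, its target Cdkn1a 87.8 and 90.2, Mdm2 39.5 and 41.2, and Ccng1 26.3 and 29.5. All 5 genes of that list were at 1 TPM or more, with a median of 40.3 TPM.

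Several ribosomal proteins are made as fusions with ubiquitin or a relative of it. Rps27a, which carries ubiquitin, had 1061 and 976 TPM. Fau, whose ubiquitin-like part is joined to the small-subunit protein eS30, had 531 and 499. Their means of 1019 and 515 TPM were farther apart than the libraries of either gene. Rack1, a signalling scaffold on the small subunit, had 611 and 589 TPM, below the core median.

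Proteins at or near the exit of the large subunit's peptide tunnel had a median of 794 TPM over 9 genes. Rpl23a, a docking site for the signal recognition particle, was highest at 1145 and 1140 TPM. The lowest was Rpl22. Among small-subunit proteins along the mRNA path, Rps2 had 1079 and 1056 TPM, Rps15 had 777 and 756, Rpsa had 611 and 605, and Rps3, which lines the mRNA entry, had 578 and 546. Rps23 was lowest in its gene row, but with its entries it stood at 949 TPM, within the range of the others.

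Genes whose mouse mutants show skeletal or skin phenotypes were all well expressed. Rpl38, mutated in Tail-short mice with patterning defects of the axial skeleton, had 811 and 797 TPM (804 ± 9.85). Rpl24, mutated in Belly spot and tail mice, had 647 and 647 (647 ± 0.0283). Rps7, with alleles that affect the skeleton, had 394 and 380. Rps19 and Rps20, both known from dark-skin mutants, had 2138 ± 17.7 and 549 ± 17.8. The median of the 5 was 647 TPM, beside 720 over core subunits and 20.6 over detected protein-coding genes. The 19 members listed for Diamond-Blackfan anaemia, a human disorder of red-cell production with frequent skeletal anomalies, had a median of 720 TPM, from Rps19 to Rpl5.

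Paralog pairs differed widely in how their counts divided, and a ratio was called past the spread only under a stated rule. Both libraries had to give the same sign, and the smaller log2 ratio had to exceed 2 times the SD between libraries of genes of like count, combined for the pair. Of 9 pairs, 6 were past the spread and 3 were not. Ratios used TPM with 0.1 added.

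Rpl3, which lies close to the peptidyl transferase centre, had 938 and 931 TPM, and its paralog Rpl3l, known from striated muscle, had 0 counts in both libraries. Taking 3 counts per library as the floor that a count of 0 allows, which covers counting error only, Rpl3 was at least 5887-fold higher in replicate 1 and at least 7753-fold higher in replicate 2. The deposited upper credibility bounds of Rpl3l, 0.402 and 0.303 TPM, are wider than that floor and allow a lower ratio, 2337-fold and 3071-fold. Muscle markers were present: all 4 of Acta1, Myog, Myh3 and Ckm were at 1 TPM or more, and their summed level was 544 and 585 TPM, led by Acta1 at 329 and 341. Heart markers were near 0, with 0 of 3 at 1 TPM, a summed level of 0.40 and 0.35 TPM, and Nkx2-5 at 0.

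Rpl10, an X-linked gene whose protein is among the last to join the large subunit, had 727 and 684 TPM, and Rpl10l, known from male germ cells, had 0 counts in both libraries. The ratio was at least 4666-fold in replicate 1 and at least 5829-fold in replicate 2, and 4823-fold and 5984-fold at the deposited upper credibility bounds of Rpl10l. Rpl39, also X-linked, had 392 and 408 TPM, and Rpl39l, likewise known from male germ cells, had 3.19 and 3.28 TPM, or 42 and 64 counts. The Rpl39 level was 120-fold higher, past the spread. Germ cell markers were low, with 0 of 3 at 1 TPM, a summed level of 0.68 and 0.92 TPM, and Dazl at 0.02 and 0.01. Rpl39l was therefore above the level of those markers in both libraries, and its source was not tested.

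Rpl22 and Rpl22l1 did not differ beyond the spread between libraries. Rpl22, an RNA-binding large-subunit protein known to repress its paralog in other tissues, had 305 and 327 TPM (chromosome 4, 152325742 to 152334071, mm10). Rpl22l1 had 335 and 330 TPM (chromosome 3, 28805436 to 28807424, mm10), or 2983 and 3879 counts. The log2 ratio of Rpl22 over Rpl22l1 was -0.14 in replicate 1 and -0.01 in replicate 2, within the spread, and on expected counts, not divided by length, it was 0.52. In TPM Rpl22l1 made up 52.3% and 50.2% of the pair. Their coding sequences were 66.9% identical, and the main transcript of Rpl22 shared no 100-base window with any other gene. Of the windows of Rpl22l1, 34.5% occurred in 2 other genes, so part of the Rpl22l1 counts is uncertain. Rpl22l1 overlaps the antisense gene Gm33051, and whether the counting used strand is not given in the sources used here. In TPM of transcripts, 62.9% and 64.2% of Rpl22l1 was protein-coding and 30.2% and 28.8% was the processed transcript Rpl22l1-209, whereas 96.4% and 96.9% of Rpl22 was protein-coding.

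**Figure D3:**
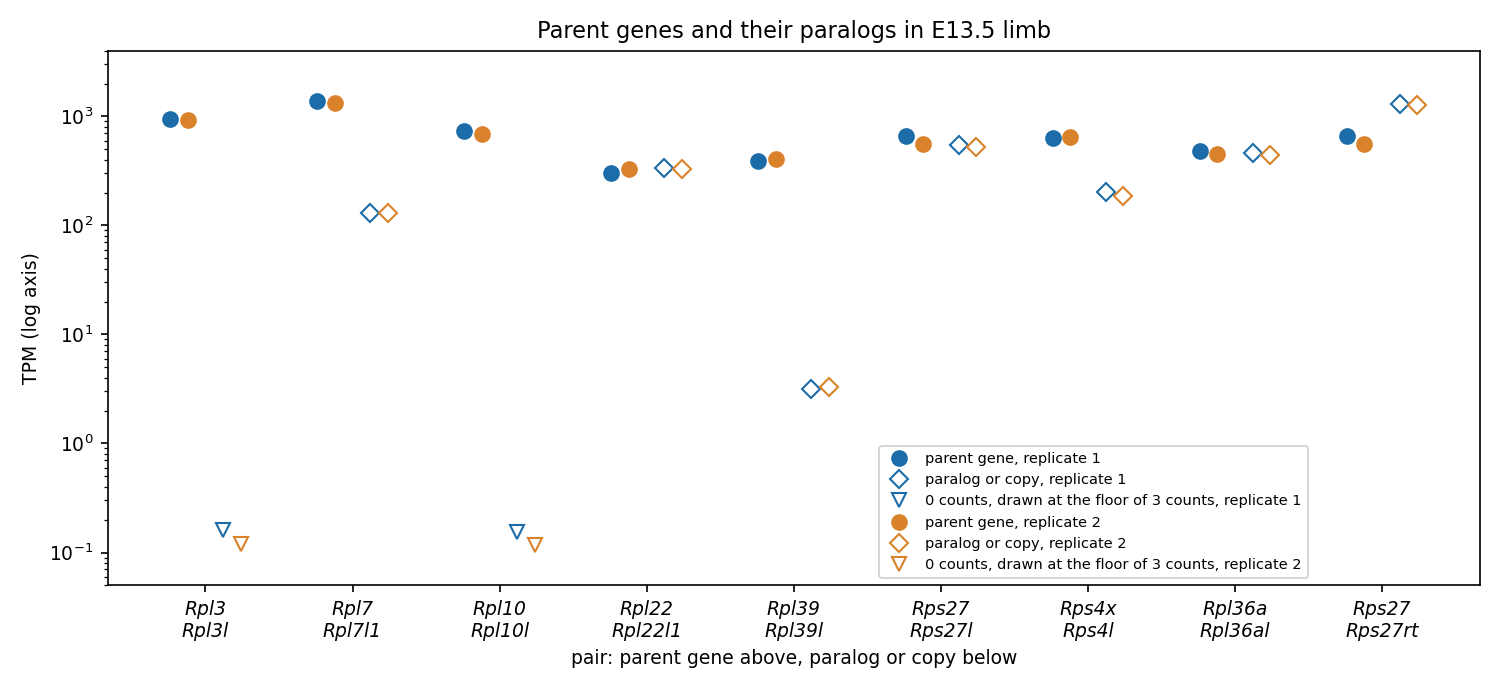
TPM (log axis) of each parent gene (filled circles) and its paralog or copy (open diamonds) in replicate 1 (blue) and replicate 2 (orange); open triangles stand for 0 counts and are drawn at the floor of 3 counts. Rpl3l and Rpl10l were at 0 and Rpl39l near 3 TPM, Rpl7l1 near 130, while Rpl22l1, Rps27l and Rpl36al stood beside their parents and Rps27rt above Rps27.

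In TPM of the gene rows, Rps27, a zinc-binding small-subunit protein, and its paralog Rps27l, a known p53 target, did not differ beyond the spread either. Rps27 had 654 and 564 TPM and Rps27l had 543 and 521, or 45.4% and 48.0% of the pair. The log2 ratio was 0.27 in replicate 1 and 0.11 in replicate 2, within the spread, but replicate 1 alone was past it. On expected counts, not divided by length, Rps27l was higher and past the spread, with a log2 ratio of -1.17. Another locus complicates Rps27: Rps27rt, annotated as protein-coding and inside the span of Osbpl10 on the other strand (chr9:114982366-114982739, minus strand, mm10), had 1292 and 1279 TPM. Rps27rt was 2.12-fold above Rps27, past the spread, but their coding sequences were 100% identical and 98.4% of the windows of Rps27 occurred in another gene. The division of counts between them is therefore uncertain, and so are the ratio of Rps27 over Rps27l and the shares of that pair. Counts of Rps27rt were not added to Rps27 in any ratio. Rps27l had 0% of its windows in another gene. The first 90 coding bases (GENCODE M21) are printed with the bases that differ from Rps27 in capitals: 0 in Rps27rt and 24 in Rps27l.
Rps27: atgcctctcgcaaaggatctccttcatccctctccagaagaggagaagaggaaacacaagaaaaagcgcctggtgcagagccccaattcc
Rps27rt: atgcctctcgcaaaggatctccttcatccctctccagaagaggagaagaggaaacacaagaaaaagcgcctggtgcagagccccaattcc
Rps27l: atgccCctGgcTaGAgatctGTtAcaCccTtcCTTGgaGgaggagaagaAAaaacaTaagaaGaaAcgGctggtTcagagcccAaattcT

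The remaining pairs fell between these patterns. Rpl7 had 1376 and 1337 TPM and Rpl7l1, a distant relative with 50.1% identity of coding sequence, had 130 and 131, a 10.4-fold difference past the spread. Rps4x, the X-linked small-subunit gene, had 632 and 642 TPM, and Rps4l, annotated as a transcribed processed pseudogene inside the span of Tmtc1 on the other strand, had 203 and 185. That ratio was 3.29-fold and past the spread. Rpl36a, X-linked, and Rpl36al, its relative on chromosome 12, had 477 and 455 against 460 and 445 TPM, 1.03-fold and within the spread (log2 ratio of -0.10 on expected counts), with 87.7% identity of coding sequence. In another gene occurred 47.4% of the windows of Rpl36a and 28.6% of those of Rpl36al, so part of their counts is uncertain. So 4 members were X-linked (Rpl10, Rpl36a, Rpl39 and Rps4x), between 400 and 706 TPM in the mean. The core genes lay on 19 chromosomes, with 14 on chromosome 7.

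The transcript tables divide each gene's TPM among its transcripts, and many members had more than one. In 35 of 77 core subunits the main transcript held under 90% of the gene in both libraries, beside 50.4% of protein-coding genes at 100 TPM or more, so the share was near the background. Protein-coding transcripts held 90% or more in 59 core subunits, beside 67.6%, and under 50% in 6, beside 8.59%. Transcripts that retain an intron held over 10% in 8 core subunits, beside 16%. Among core subunits, the main transcript's percent differed by at most 5.01 points between libraries, whereas the low paralog Rpl39l had 71.3% and 100% in Rpl39l-201.

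The 6 with a protein-coding share of TPM under 50% were Rpl35, Rps20, Rpl12, Rpl13a, Rpl5 and Rpl23. Most of Rpl13a was in transcripts with no known class. Rpl35-203, a processed transcript without an annotated reading frame, held 86.2% and 86.6% of Rpl35, and the coding Rpl35-201 held 4.83% and 5.34%. In Rps20, the retained-intron class held 93.7% and 93.6% of TPM, led by Rps20-201 of 582 nt, while the coding Rps20-203 has 3706 nt. In expected counts, not divided by length, Rps20-201 held 65.2% in each library. Rpl12-201, annotated as subject to nonsense-mediated decay, held 65.5% and 60.5% of Rpl12. Rpl23-204, a processed transcript, held 64.2% and 65.4% of Rpl23. Retained-intron transcripts held 67.4% and 67.3% of Rpl5, led by Rpl5-205 with 52.4% and 50.1%. In expected counts, not divided by length, the coding Rpl5-201 held 842 and 990, against 521 and 626 for Rpl5-205. Pseudogene entries held 89.4% and 89.7% of the counts of Rpl5 plus its entries, and 60.5% and 61.5% for Rpl12. Counts assigned to the entries are missing from these transcripts, so the class shares of Rpl5 and Rpl12 are uncertain. For Rpl13a the main transcript, with 37.8% and 37.4%, was not matched to a class, so its coding share of 22.4% and 22.8% is a lower limit.

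**Figure D4:**
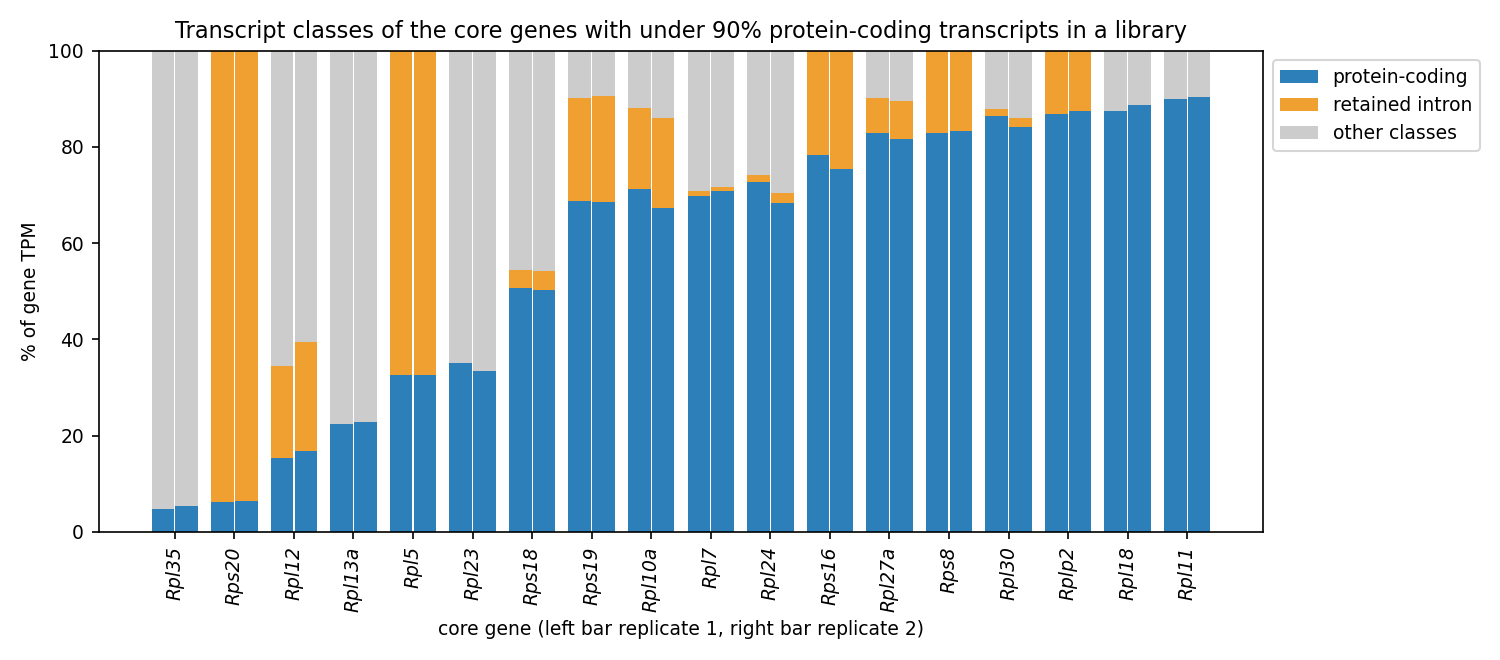
Percent of gene TPM in protein-coding (blue), retained-intron (orange) and other or unmatched transcripts (grey) for the 18 core genes with under 90% protein-coding transcripts in a library; left and right bars are replicates 1 and 2. Rpl35 has the lowest coding share, 4.83% and 5.34%, and the libraries repeat the make-up of each gene.

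Where coding transcripts dominated, they could still be several. In TPM Rpl15 divided most evenly, with 35.3% and 36.0% in Rpl15-203 and 34.5% and 36.2% in Rpl15-202. In expected counts, not divided by length, Rpl15-202 held 3707 and 4880, against 1464 and 1870 for Rpl15-203. Pseudogene entries held 57.5% and 59.6% of the counts of Rpl15 plus its entries, and 36.5% and 37.0% for Rpl11. The transcript shares of both genes are therefore uncertain. Rpl38-201 held 48.6% and 49.6% and Rpl38-204 held 35.2% and 34.5% of Rpl38, all of it protein-coding. Rpl11-210 held 48.7% and 47.3% of Rpl11, and Rpl29-201 held 56.96% and 52.97% of Rpl29. Rps18-201 held 50.5% and 50.2% of Rps18, beside the processed transcript Rps18-209 with 45.3% and 45.5%. Rpl7-205 held 55.3% and 54.1% of Rpl7. A coding length or annotation class assigned to a transcript does not show that it was translated.

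The libraries repeated the members closely. Counts were scaled by TMM, edgeR's correction for library size and composition, and 81 members had at least 10 counts in each library. Of these, 0 were over 1.5-fold apart, beside 5.51% of all genes tested and 0.0394% of genes averaging 1000 counts or more. Most members averaged 1000 counts or more, so this was near the background and not particular to them. The log2 ratio of replicate 2 over replicate 1 ran from -0.24 in Rps27 to 0.17 in Rpl39l. With 1 library a side there was no test, and edgeR's common biological coefficient of variation over all genes was 5.19%.

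Small as they were, the differences leaned one way. The ratio was below 0 in 69 of 77 core subunits, beside 47.9% of genes averaging 1000 counts or more. The median was -0.05 over members and -0.00041 over all genes tested. Scaling by spike-ins left 58 of 77 below 0, beside 35.6% of those genes. The source of the lean was not tested. Markers of cell types also differed between the libraries. The 7 limb mesenchyme markers summed to 568 and 622 TPM: Tbx5, a forelimb gene, had 25.2 TPM in replicate 1 and 36.5 in replicate 2, the hindlimb genes Pitx1 and Tbx4 had 90.4 and 73.8 and 24.4 and 20.9, Hoxd13 had 46.0 and 40.4, and Hoxa13 had 23.0 and 20.4. The cartilage markers Col2a1, Sox9 and Acan summed to 801 and 896 TPM. Afp, a liver and yolk-sac gene, had 22.3 and 1.73 TPM and Alb had 5.28 and 0.86, a summed level of 27.6 and 2.59 TPM, while the erythroid markers Hbb-y, Hba-a1 and Alas2 summed to 8914 and 8939 TPM. The part of these differences in the lean was not tested.

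**Figure D5:**
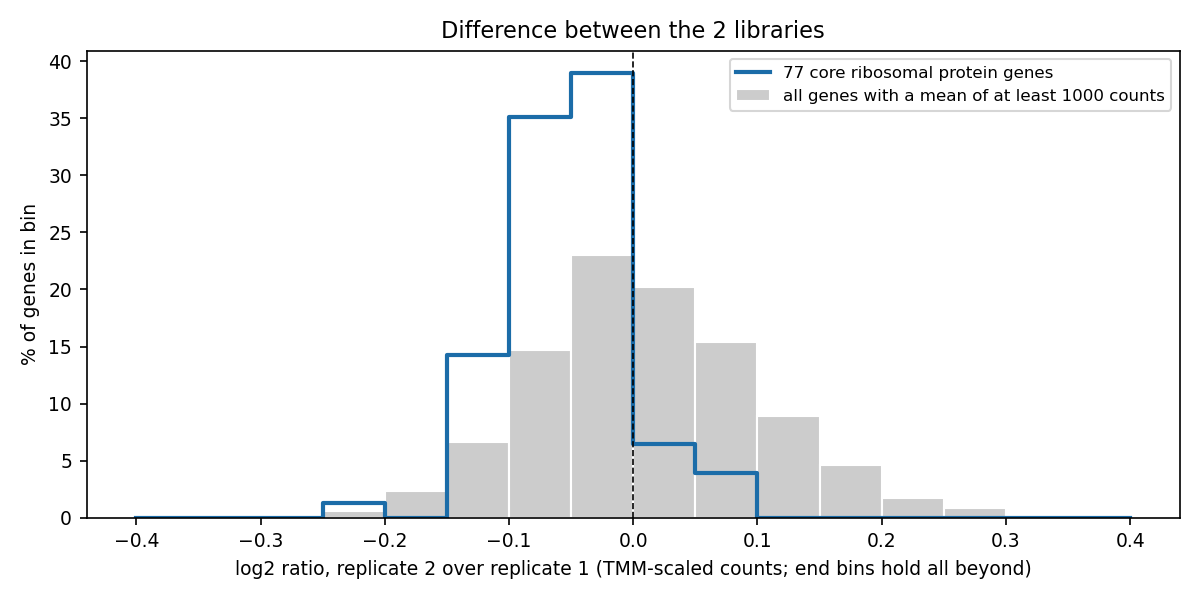
Percent of genes in each 0.05-wide bin of the log2 ratio of replicate 2 over replicate 1 (TMM-scaled counts), for the 77 core genes (blue line) and all genes averaging 1000 counts or more (grey bars). Most of the core line lies left of 0, with 69 of 77 genes below it, and between -0.24 and 0.09.

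The machinery that makes ribosomes had lower medians in TPM than the 720 of the core subunits, although Npm1 and Cnbp stood above that value. All 11 RNA polymerase I genes listed, which transcribe the rRNA precursor, were detected with a median of 36.7 TPM. Among them, Polr1d had 101 and 104 TPM, Polr1c 88.0 and 86.3, and Taf1c 10.8 and 11.6. All 18 nucleolar assembly factors were detected with a median of 63.7 TPM. Npm1, a nucleolar chaperone, had 1019 and 976 TPM and Ncl, nucleolin, 344 and 345, while Nol6 had 21.6 and 24.0. Of 10 export and maturation factors listed, 9 were matched and detected, with a median of 65.8 TPM. In that list Eif6, which keeps the subunits apart, had 162 and 158 TPM, Nmd3, the export adaptor of the large subunit, 116 and 103, and Efl1 18.9 and 19.9.

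Dedicated chaperones, which escort single ribosomal proteins to the nucleolus, were all 6 detected with a median of 50.8 TPM. Aamp, the relative of a yeast chaperone of Rpl10, had 193 and 183 TPM, Bccip, the chaperone of Rpl23, had 172 and 173, and Tsr2, the chaperone of Rps26, had 36.8 and 35.5. All 8 genes listed for control of TOP messages were detected, with a median of 56.7 TPM. Cnbp, which binds TOP messages, had 927 and 919 TPM and Eif4ebp1, the mTOR-controlled repressor of cap-dependent translation, had 99.2 and 110. Larp1, which binds the TOP end itself, had 14.7 and 15.1 TPM, Mtor 13.0 and 13.7, and Rptor, its partner in the same complex, 9.58 and 9.28. None of the genes in these 5 lists was over 1.5-fold apart between libraries, beside 5.51% of all genes tested. Most of them averaged 1000 counts or more, where the share was 0.0394%, so this was near the background.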

How the data were processed

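Per the submitters' labels, the build was mm10 and total RNA longer than 200 nt was sequenced. Neither aligner nor quantifier is named, and strand use is not given in the sources used here. The authors deposited gene and transcript tables with expected counts, which are estimates made by dividing reads among matching entries, TPM scaled by effective length, the percent of gene TPM in each transcript, and posterior means and credibility bounds of TPM, per the file headers. For edgeR these were rounded.

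Names came from Ensembl identifiers, of which 42462 of 43346 matched. Positions, biotypes and coding sequences came from GENCODE M21, while the tables used M4. Members and lists were chosen with earlier results of these data known. Named genes were the 10 highest and 10 lowest core subunits, all paralogs and parents, the small structural groups in full, the ends of larger lists, and the core genes with the lowest main-transcript share, and further genes were named where a count turned on them. Of the listed names, Riok2, Rps30 and Gnb2l1 were not matched; the last 2 are older names of Fau and Rack1.

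TMM scaling came from edgeR 4.0.16 (R 4.3.3), with DESeq2 1.42.0 size factors as an alternative, over genes reaching 10 counts in both libraries; log2 ratios added 0.5 counts. Other values came from Python 3.11.15, numpy 2.4.6, pandas 2.3.3, scipy 1.17.1 and Biopython 1.88. The ratio step was tested on simulated data. Main transcripts were compared in 100-base windows with those M21 transcripts of other genes that the tables also hold, and pseudogene entries by 25-base words. Transcripts found in M21 alone were not searched. No p-value was computed, since 1 group of 2 libraries has no contrast. A few genes that enter the counts and medians are not reported here by name or value and are not plotted.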

Additional observations from a re-analysis of the deposited data

How the results depend on the processing

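The number of members detected was 81 without replicate 1 and without replicate 2, 80 at 5 TPM and 81 by posterior mean TPM. The share of expected counts, 2.44%, was 6.33% as a share of TPM, 2.55% with 5 further ribosomal genes that have other symbols, and 2.63% with pseudogenes named for a member. It was 2.86% with pseudogenes matched by sequence, an alternative chosen after seeing the data like the others of that kind, and 2.40% to 2.48% without each replicate in turn. The SD of log2 TPM over core subunits, 0.96, was 0.94 per full gene length, 0.98 for counts, 0.96 for posterior mean TPM, 0.96 for genes of at least 500 nt, 0.87 with named pseudogenes and 0.64 with pseudogenes matched by sequence, and 0.96 to 0.96 without each replicate. The 60S minus 40S log2 difference, -0.07, was 0.0047 per full gene length, -0.14 for genes of at least 500 nt, -0.25 with matched pseudogenes, and -0.10 to -0.04 without each replicate, and the cause of the change of sign was not tested. Of 9 pairs, 6 were past the spread, with 6 to 7 without each replicate and 7 on counts. On counts not divided by length the log2 ratio was 0.52 for Rpl22 over Rpl22l1, -1.17 for Rps27 over Rps27l and -0.10 for Rpl36a over Rpl36al, each with the sign turned; without replicate 2 the ratio of Rps27 over Rps27l was past the spread at 0.27. The count over 1.5-fold apart was 0 under every scaling and filter run, and the core subunits with a main transcript under 90% numbered 34 by counts and 35 to 36 without each replicate.

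No paired analysis was possible because the labels give a single group, so no other group shares the replicate numbers. The 2 libraries set the precision: counts of core subunits were deep enough that counting error was small, but the SD of log2 TPM between libraries was 0.08 for genes in the decade from 1000 counts and 0.47 for those from 10 counts, the range of Rpl39l. Levels of genes with near-identical copies, such as Rpl5 and Rps27, also depend on how shared reads were divided, and whether those reads came from the gene or the copy was not tested.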

Other observations

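Values named here were chosen after they were seen. The processed pseudogene Rpl35a-ps3 (chromosome 17) had 266 expected counts in replicate 1 and 60.1 in replicate 2, or 54.6 and 9.28 TPM, while Rpl35a itself had 800 and 762 TPM. The credibility bounds of the deposited TPM for Rpl35a-ps3 ran from 2.76 to 36.5 in replicate 1 and from 6.91e-05 to 19.0 in replicate 2. Rpl22-204 held 16.6% of Rpl22 in replicate 1 and 2.83% in replicate 2, and Rpl22-208, of nearly the same length (2048 against 2051 nt), held 1.51% and 13.0%, while Rpl22 as a gene had 305 and 327 TPM. Rps12l1, a processed pseudogene inside the span of Nipa1 and one of the entries matched to Rps12, had 321 and 340 TPM, above Rps12 itself at 238 and 256.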
